A study of Mus musculus with 6 samples.

Results

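CD8 T cells in which no transcript of granzyme K (Gzmk) was captured made up 2186 of the 42682 liver cells kept from 6 mice, and 2186 of the 14763 T cells. They were chosen by their measured counts of unique molecular identifiers (UMIs, each standing for 1 captured transcript). A cell was kept with at least 300 genes and at most 20% of its UMIs in mitochondrial genes. It then needed at least 2 UMIs over Cd3d, Cd3e and Cd3g, at least 2 over Cd8a and Cd8b1, none of Gzmk, Cd4 or Foxp3, and at most 1 over Cd79a and Ms4a1. Levels of these 10 genes are therefore descriptions and were not tested between populations. At the edge of the selection, 583 of its cells had exactly 2 CD8 UMIs, and 674 cells that met every other condition were left out with 1. The study asked how STING in endothelial cells shapes the immune cells of the liver in a mouse model of metabolic dysfunction-associated steatohepatitis (MASH). It compared mice lacking Sting in endothelium (Stingfl/fl Cdh5-Cre+, 3 mice, called knockout) with littermates without the recombinase (Stingfl/fl Cdh5-Cre-, 3 mice, called control), with 1 library per mouse. All 6 mice carried the floxed alleles, ate chow to 8 weeks of age, and then received a western diet with carbon tetrachloride (WD-CCl4) for 12 weeks. The Cdh5 promoter drives Cre in endothelium, so the T cells were not the intended target, and whether they carried the deletion was not tested.

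CD8 T cells recognise peptides on MHC class I and kill target cells with granule proteins such as perforin and the granzymes. Naive CD8 T cells recirculate through lymphoid organs with the help of the chemokine receptor Ccr7, and the factors Lef1 and Tcf7 belong to that state. Activated and memory cells switch on chemokines, granule proteins and the T-box factors Eomes and Tbx21, and granzyme K marks a CD8 subset that accumulates in chronically inflamed tissue. The liver holds all of these, along with natural killer (NK) cells and innate-like T cells that share part of the cytotoxic programme.

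The libraries held 55017937 to 73867890 UMIs in 4865 to 9011 kept cells. The population numbered 284, 288 and 595 cells in knockout libraries 1, 2 and 3, and 521, 347 and 151 cells in control libraries 1, 2 and 3. Its summed UMIs were 2082791 to 4436522 in knockout and 1277077 to 3623210 in control libraries, so control library 3 gives the least precise sums. The labels name liver sinusoidal endothelial cells, although the protocol is that of whole liver, and the selected cells carried T cell genes. With every cell thinned to 1500 UMIs, Themis, a regulator of T cell receptor signalling, was detected in 65.7% ± 5.75 of the population and in 0.360% of B cells (SD over 6 libraries). Crtam, an adhesion molecule of activated cytotoxic lymphocytes, was detected in 12.3% ± 2.61 of it and in 0.127% of B cells. Among markers of other lineages, 1 of 8 of plasma cells (Mzb1) and 1 of 12 of NK cells (Cma1) were at 0 in all 6 sums. So were 3 of 20 myeloid markers (C1qc, Clec4f and Marco) and 2 of 9 of red cells (Hba-a2 and Hbb-bs). Plasma cell markers summed to 49.8 to 77.3 CPM (UMIs scaled to the same total in every sum) in knockout and 56.9 to 277 CPM in control libraries. NK cell markers summed to 520 to 925 and 521 to 669 CPM, B cell markers to 451 to 852 and 414 to 688 CPM. The NK list includes Gzma and Prf1, which CD8 T cells also make, so its sum does not measure NK cell transcripts alone. Endothelial markers, among them Pecam1, which naive T cells share, summed to 255 to 455 CPM in knockout and 301 to 605 CPM in control libraries. The 20 myeloid markers summed to 236 to 2851 CPM in knockout and 130 to 1390 CPM in control libraries. The highest value was that of knockout library 1, where the neutrophil genes S100a9 and S100a8 had 1529 and 963 CPM. Cholangiocyte, mesothelial and stromal markers summed to 389 to 1662 CPM in knockout and 351 to 1217 CPM in control libraries, and hepatocyte markers to 63.5 to 282 CPM in knockout and 59.1 to 166 CPM in control libraries. Both sums were highest in knockout library 3. Between genotypes 11 of the 13 tested cholangiocyte, mesothelial and stromal markers had positive differences (median 0.45) and none passed, and their part in other values was not tested. Scrublet scored 29 of the 2186 cells as doublets, 26 cells carried a Trdc UMI of gamma-delta T cells, and 138 carried a UMI of a myeloid, endothelial, NK or further B cell gene. A single barcode of the population occurred in more than 1 library.

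The share of the population showed no difference between genotypes that passed an exact test. It made up 3.94%, 4.43% and 8.43% of all kept cells in knockout livers, against 6.48%, 3.85% and 3.10% in control livers. Of the T cells it made up 12.6%, 12.0% and 24.0% in knockout livers, against 13.8%, 12.9% and 13.0% in control livers. Knockout liver 3 lay above every other liver on both measures, and the other 2 knockout livers lay under every control liver in the share of T cells. The mean share of T cells was 16.2% ± 6.79 in knockout and 13.2% ± 0.535 in control livers (SD, n = 3 each), and the exact two-sided permutation test gave p = 1.0. Without knockout library 3 the difference between the means turned to -0.948 percentage points. For the share of all cells, 5.60% ± 2.47 in knockout and 4.48% ± 1.78 in control livers, the exact p was 0.5, and for the share of CD8 T cells it was 0.4. The population was 59.4%, 58.1% and 75.4% of the CD8 T cells in knockout livers, against 42.3%, 67.5% and 56.8% in control livers. With 3 mice against 3 this test cannot go under 0.1.

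**Figure D1:**
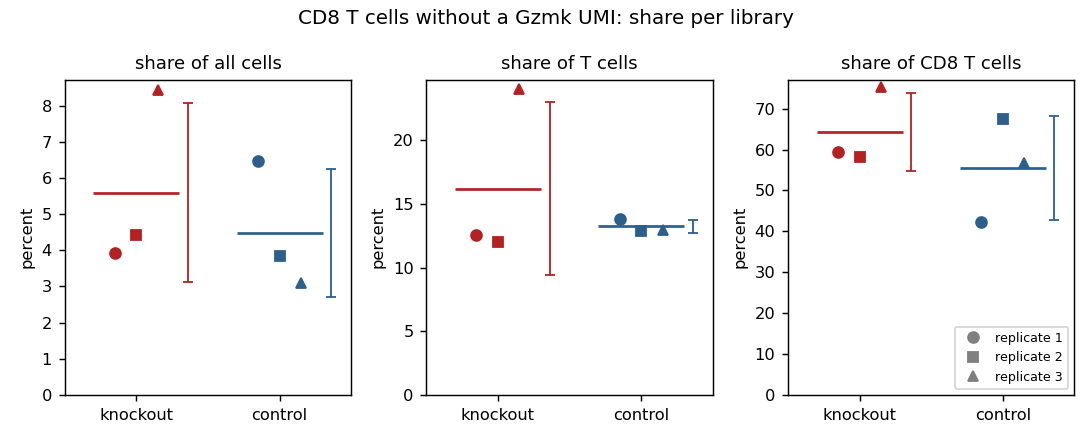
Percent of all kept cells, of T cells and of CD8 T cells that were CD8 T cells without a Gzmk UMI, 1 point per library (circle, square and triangle for replicates 1, 2 and 3), with the mean as a line and the SD as a bar. Knockout library 3 is the highest point in each panel, at 8.43%, 24.0% and 75.4%.

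Set beside the 1590 CD8 T cells with a Gzmk UMI of the same livers, the population carried more transcripts of naive and recirculating T cells and fewer of granule proteins, of Eomes and of the cell cycle. Ccr7, the receptor that leads T cells to lymph nodes, had a fold difference of 2.54 ± 0.15 on the log2 scale (SE), and Gzma, granzyme A, one of -1.49 ± 0.078. The test was edgeR's quasi-likelihood test on summed UMIs with the library as a block. Of 9723 genes tested, 489 (5.03%) were higher and 261 (2.68%) lower at an adjusted p under 0.05. Both sums of a library come from 1 mouse, and the split was made on Gzmk UMIs of the same cells, so these are genes that go with the detection of Gzmk. A difference in a sum does not tell fewer cells with a transcript from less of it per cell. No UMI does not mean no Gzmk: 774 of the CD8 T cells with Gzmk had a single UMI of it. When each cell was first thinned to 1500 UMIs and then selected, only 1205 genes could be tested and 5 were called, of which 3 were among the 750. The Gzmk-positive sums then rested on 7 to 104 cells. Differences were 0.44 for Lef1, -0.92 for Gzma and -0.92 for Eomes, and none of these passed. In the main fit they were 1.25, -1.49 and -1.18. The granule gene Nkg7 passed at -0.72, against -0.50 in the main fit. The chromatin organiser Satb1, at 1.32 against 1.28, did not pass. The population was the deeper of both in 5 of 6 libraries, with median UMIs per cell of 5811 to 7095, against 5261 to 6929 in the Gzmk-positive cells.

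Of the 24 genes of the naive and recirculating list 23 could be tested, 16 were higher and 1, the integrin Itga4, was lower, and the median difference was 0.66 on the log2 scale, against -0.01 over all genes tested. Ccr7 had 38.8 to 128 CPM in the population (median 95.1), against 13.5 to 17.4 CPM in the Gzmk-positive cells (median 15.2). No library of one overlapped the other (edgeR adjusted p = 7.5e-07). Dapl1, a gene high in naive CD8 T cells, had 18.5 to 93.2 CPM (median 43.3), against 1.28 to 8.45 CPM in Gzmk-positive cells (median 7.67), a difference of 2.82 ± 0.18 (SE; edgeR adjusted p = 6.41e-07). The transcription factor Lef1 had 278 to 525 CPM (median 376), against 100 to 208 CPM in Gzmk-positive cells (median 169), a difference of 1.25 ± 0.16. Again the lowest library of the population lay above the highest of the Gzmk-positive cells for both. Satb1, a chromatin organiser of T cells, differed by 1.28 ± 0.19, and Tcf7 and Bach2, both factors of quiescent T cells, by 0.73 ± 0.094 and 0.66 ± 0.087. Il7r, the interleukin-7 receptor that keeps naive and memory cells alive, had 134 to 205 CPM in the population, against 61.6 to 124 CPM in Gzmk-positive cells, a difference of 0.90 ± 0.089 (edgeR adjusted p = 4.28e-05). S1pr1, the receptor for leaving lymphoid tissue, was higher by 0.77 ± 0.11. Igfbp4, a binder of insulin-like growth factors found in naive T cells, differed by 1.12 ± 0.27.

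Outside that list, the largest higher differences were those of Tnfsf8, the CD30 ligand, at 1.19 ± 0.14, Nt5e, the CD73 ectoenzyme that makes adenosine, at 1.17 ± 0.11, and the carboxypeptidase gene Cpm at 1.16 ± 0.24. Aff3, a nuclear protein, differed by 1.06 ± 0.07. It had 142 to 206 CPM in the population, against 61.9 to 103 CPM in Gzmk-positive cells (edgeR adjusted p = 7.5e-07). With Ccr7, Satb1, Lef1, Igfbp4, Tnfrsf26 at 1.00 ± 0.19 and Sh3bp5 at 0.96 ± 0.13 these were the 10 largest higher differences once genes under a mean log2 CPM of 5 were set aside. All 10 were higher in 6 of 6 libraries. Cpm and Igfbp4 lost their call under 8 and 9 of the other settings and Satb1 under 4.

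Among the granule and effector genes, 21 of 24 could be tested, 9 were lower and 2 higher, with a median of -0.34. With 1 library left out 5 to 9 were lower, 5 without control library 2 or 3. Gzma had 28.8 to 237 CPM in the population (median 98.1), against 106 to 696 CPM in Gzmk-positive cells (median 282). The ranges overlap between mice, while within each of the 6 libraries the population was lower (edgeR adjusted p = 1.23e-07). Gzmb, granzyme B, had 64.0 to 325 CPM (median 108), against 157 to 414 CPM in Gzmk-positive cells (median 221), a difference of -0.95 ± 0.18 (edgeR adjusted p = 0.0266). Gzmb lost its call under 6 other settings, among them the omission of knockout library 3 and of each control library. Nkg7, a granule membrane protein, differed by -0.50 and the chemokines Ccl3 and Ccl4 by -0.52 and -0.45. Prf1, perforin, had a difference of -0.40 ± 0.12 and did not pass (edgeR adjusted p = 0.0558). The 2 higher members were Srgn, the proteoglycan that packs granules, at 0.27 ± 0.036, and Tnf, a cytokine, at 0.41. Without cells that had a Mki67 or Top2a UMI, 10 of 21 were lower and none higher. Gzma and Gzmk are neighbours on chromosome 13, 70627 bases apart, with Gzma at chr13:113093825-113100981 and Gzmk at chr13:113171608-113225908, both on the minus strand (GRCm38, GENCODE annotation).

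Memory and homing genes were split. Eomes, the T-box factor of effector and memory CD8 cells, had 62.8 to 150 CPM in the population (median 97.6), against 185 to 296 CPM in Gzmk-positive cells (median 229). The ranges did not overlap, and the difference was -1.18 ± 0.087 (edgeR adjusted p = 2.43e-06). The chemokine receptor Ccr2, which leads cells to inflamed tissue, differed by -1.0 ± 0.13. Ccr2 had 20.9 to 40.0 CPM in the population, against 55.7 to 76.1 CPM in Gzmk-positive cells, again without overlap. In the homing list 7 of 24 tested genes were higher and 5 lower, with a median of 0.07. Itgb7, the integrin chain of gut homing, was higher by 0.48 ± 0.074, and Pecam1, the adhesion molecule that naive T cells share with endothelium, by 0.95 ± 0.14. Itgae, the partner of Itgb7 on resident cells, differed by 1.68 ± 0.4 (edgeR adjusted p = 0.0302) at low levels of 4.02 to 28.6 CPM, against 0 to 7.30 CPM in Gzmk-positive cells. It was 1 of 4 residency genes that were higher, of 15 tested, and none was lower.

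Of 26 cytokine receptor genes tested, 11 were higher, 7 without knockout library 2 or control library 2, and 1 lower, with a median of 0.28. Il4ra, the interleukin-4 receptor chain, had 65.4 to 80.9 CPM in the population, against 30.8 to 53.1 CPM in Gzmk-positive cells, a difference of 0.92 ± 0.097 (edgeR adjusted p = 8.48e-05). Il18r1, Il12rb2 and Tgfbr2, receptors for interleukin-18, interleukin-12 and TGF-beta, differed by 0.79 ± 0.13, 0.69 ± 0.081 and 0.53 ± 0.065. The 1 lower was Il10ra, a receptor chain for interleukin-10, at -0.51. Of 23 tested genes that T cell receptor stimulation induces, 10 were higher and 1 lower, with a median of 0.20. Without cells that had a Mki67 or Top2a UMI, 3 were higher and 3 lower with a median of 0.07, and with 1 library left out 3 to 8 were higher, fewest without knockout library 2. Nr4a1, an immediate response factor, was higher by 0.47 ± 0.07 and Myc by 0.40 ± 0.075. Those genes respond to handling as well, and 10 of 30 heat shock and dissociation genes were also higher and none lower (median 0.15), a count of 3 without the dividing cells and 5 to 11 with 1 library left out. Their part in the result was not tested.

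Proliferation and checkpoint genes went the other way. All 28 cell cycle genes tested had negative differences and 14 were lower at the threshold, with a median of -0.69. With 1 library left out the count ran from 4 to 15, at 4 without knockout library 2, 8 without knockout library 3, 7 without control library 1 and 6 without control library 2. Mki67, a marker of dividing cells, had 14.9 to 97.4 CPM in the population, against 50.9 to 130 CPM in Gzmk-positive cells, a difference of -0.97 ± 0.19 (edgeR adjusted p = 0.0255). Pclaf, Cks1b and Birc5, all of dividing cells, were among the 10 largest lower differences at -1.12 ± 0.22, -0.97 ± 0.19 and -0.94 ± 0.2. Mki67 and Pclaf lost their call under 4 other settings and Birc5 under 5. Tox, a factor of chronically stimulated CD8 cells, had 249 to 736 CPM in the population (median 441), against 389 to 1350 CPM in Gzmk-positive cells (median 587). It was 1 of 5 checkpoint and exhaustion genes of 19 that were lower, along with Rgs16 at -0.72 ± 0.12, Havcr2 (Tim-3) at -0.97 ± 0.19 and Tox2 at -1.18 ± 0.25. The inhibitory receptor Btla was higher by 0.78 ± 0.16. Epha3, an ephrin receptor, and Setbp1, a nuclear protein, complete the 10 largest lower differences of that level, at -1.37 ± 0.29 and -0.98 ± 0.073, and Epha3 lost its call under 5 other settings. Of 41 interferon-stimulated genes 1, Zbp1, was lower and none higher.

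When cells with a Mki67 or Top2a UMI were left out of both populations, a setting added after the values were seen, 383 genes were called and 281 of these were among the 750. Of the cell cycle list 14 genes could then be tested, 1 was lower and the median was -0.04, while 13 naive genes were higher and 1 lower. With cells that had a Ccl5 UMI alone, also added later, 535 genes were called, 12 naive genes were higher, and Ccr7 differed by 1.80. Leaving out 1 library at a time gave 383 to 660 called genes, with 11 to 16 naive genes higher. The markers named for the population did not separate it from Gzmk-positive cells at the threshold. Themis differed by -0.07 ± 0.05 and Crtam by 0.06 ± 0.11, with edgeR adjusted p = 0.457 and 0.814. Cd8a had 239 to 340 CPM in the population, against 241 to 367 CPM in Gzmk-positive cells.

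**Figure D2:**
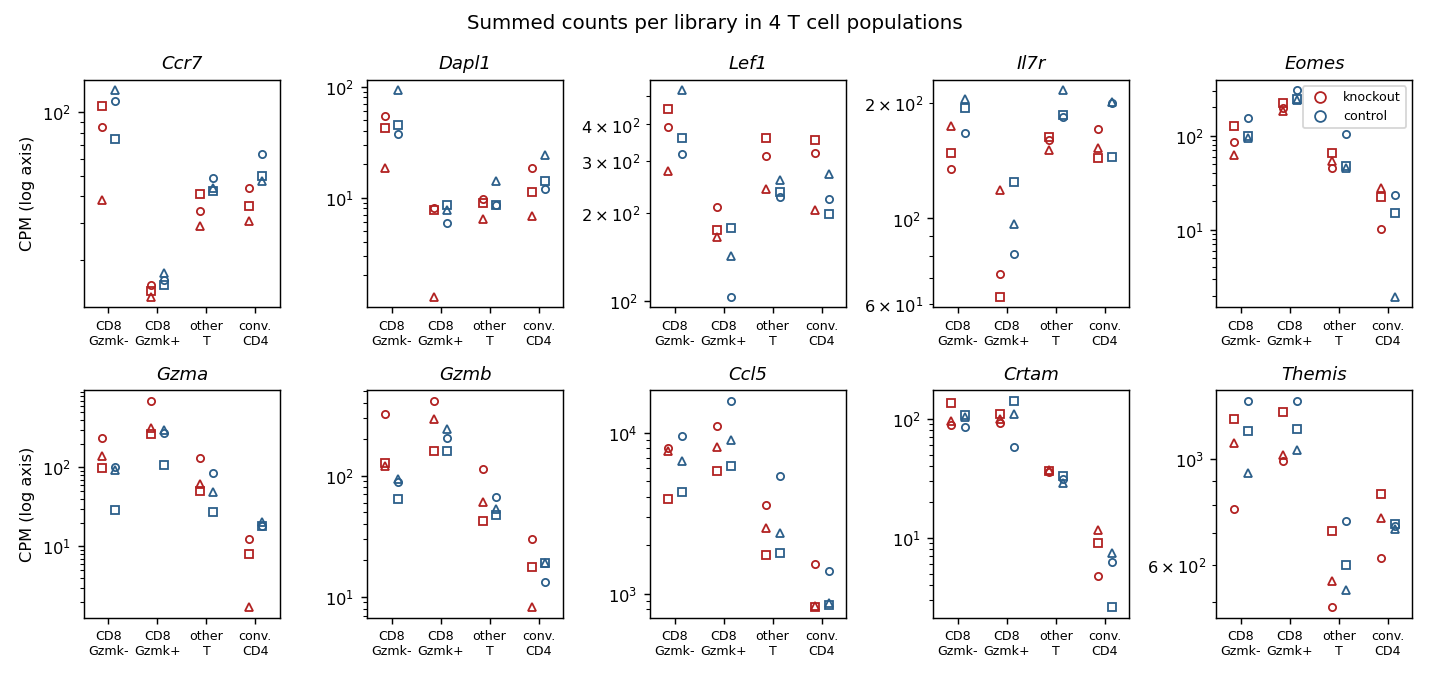
CPM on a log axis of 10 genes in each library, in CD8 T cells without Gzmk, CD8 T cells with Gzmk, other T cells and conventional CD4 T cells (red knockout, blue control, shape for the replicate). Ccr7, Dapl1 and Lef1 are highest in the cells without Gzmk, Eomes, Gzma and Gzmb in those with it, and Crtam is low in CD4 T cells at 2.60 to 11.6 CPM.

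**Figure D3:**
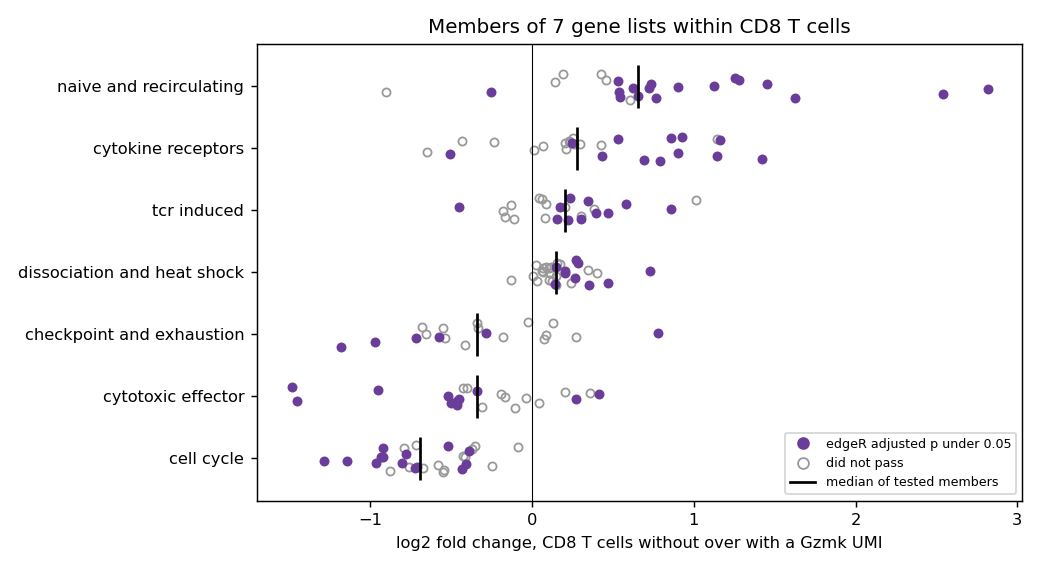
Log2 fold difference of CD8 T cells without over with a Gzmk UMI for the tested genes of 7 lists, filled where the gene passed an adjusted p of 0.05, open where it did not, with the list's median as a bar. Medians run from 0.66 for naive and recirculating genes to -0.69 for cell cycle genes.

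Upstream sequences are shown for the gene that defines the split, for its neighbour Gzma, and for Dapl1, the largest difference of the naive list. Each is the RefSeq window of GRCm38.p6 from 250 bases before to 50 after the start that RefSeq gives, 5′ to 3′ along the gene, with matches in capitals. The motifs searched on both strands were the TCF/LEF core CTTTGA, the T-box half-site GGTGTGA and the RUNX core TGTGGT, which reads ACCACA on the other strand. These are the families of Lef1 and Tcf7, of Eomes and Tbx21, and of Runx3. The Gzmk window is chr13:113180916-113181215 (minus strand), the Gzma window chr13:113100932-113101231 (minus strand) and the Dapl1 window chr2:59484403-59484702 (plus strand). The start RefSeq gives for Gzmk lies inside the longer span of that gene in the GENCODE annotation.
Gzmk: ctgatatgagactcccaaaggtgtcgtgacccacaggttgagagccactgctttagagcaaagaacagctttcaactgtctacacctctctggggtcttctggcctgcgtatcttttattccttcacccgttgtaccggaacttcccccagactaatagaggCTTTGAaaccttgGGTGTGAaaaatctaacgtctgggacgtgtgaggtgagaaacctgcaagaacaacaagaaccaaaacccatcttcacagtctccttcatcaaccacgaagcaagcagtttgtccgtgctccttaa
Gzma: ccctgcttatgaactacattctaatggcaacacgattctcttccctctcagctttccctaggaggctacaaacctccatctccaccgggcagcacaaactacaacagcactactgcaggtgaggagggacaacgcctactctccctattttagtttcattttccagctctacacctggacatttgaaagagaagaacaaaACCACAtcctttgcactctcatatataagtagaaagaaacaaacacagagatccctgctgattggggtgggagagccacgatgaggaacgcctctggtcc
Dapl1: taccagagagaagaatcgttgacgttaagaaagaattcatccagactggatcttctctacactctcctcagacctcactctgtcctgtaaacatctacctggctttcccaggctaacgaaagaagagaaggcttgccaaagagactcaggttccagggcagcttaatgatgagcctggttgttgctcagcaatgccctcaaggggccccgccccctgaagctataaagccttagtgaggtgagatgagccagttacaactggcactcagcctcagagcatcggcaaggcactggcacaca
The Gzmk window holds 1 TCF/LEF core and 1 T-box half-site, the Gzma window 1 RUNX core, and the Dapl1 window none of the 3. Over all 32851 windows, 16.003% hold a TCF/LEF core, 3.98% a T-box half-site and 16.8% a RUNX core. A match is a run of letters and not a measured binding site. Of the 10 largest higher genes 8 had windows, 16 in all, of which 1 held the TCF/LEF core and 1 the RUNX core. Of the 10 largest lower genes 9 had a window each, of which 2 held the RUNX core and none the TCF/LEF core. No window of either set held the T-box half-site. The shares were not tested against those of all windows.

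The population was not uniform. With cells thinned to 1500 UMIs, 85.8% ± 4.54 of them carried a Ccl5 UMI, the chemokine of memory and effector T cells, 54.0% ± 7.71 a Nkg7 UMI and 12.6% ± 4.67 a Gzmb UMI (mean and SD over 6 libraries). In B cells, which should lack them, the shares were 2.54%, 0.694% and 0.143%. Naive genes were seen less often: Lef1 in 28.9% ± 6.61, Il7r in 21.1% ± 4.07 and Ccr7 in 7.83% ± 1.86. B cells gave 2.65% for Lef1 and 0.465% for Il7r, and express Ccr7 themselves. Without thinning, the shares of the population were 89.5% for Ccl5, 87.8% for Nkg7, 25.4% for Gzmb, 53.0% for Lef1, 49.0% for Il7r and 19.9% for Ccr7. In Gzmk-positive cells thinned alike, Ccl5 was seen in 98.0%, Nkg7 in 66.1%, Gzmb in 22.3% and Ccr7 in 2.26%. At that depth Ccl5 was seen in most cells of the population, and Ccr7 in a minority.

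A division by Ccl5 separated those programmes within the population. Cells without a Ccl5 UMI after thinning were 13.4%, 18.8% and 8.91% of it in knockout libraries, and 10.8%, 12.8% and 20.5% in control libraries, 31 to 56 cells each. Ccr7 was detected in 20.5% to 42.9% of these cells (median 25.9%), against 2.58% to 6.69% of the cells with Ccl5 (median 4.74%). Lef1 was detected in 34.1% to 61.3% of the cells without Ccl5, against 14.9% to 31.4% of those with it. For both genes no library of one set overlapped the other. The activation and memory marker Cd44 had the reverse order, at 20.8% to 32.1% without Ccl5, against 35.8% to 47.8% with it. Nkg7 did the same, at 19.4% to 36.8% without Ccl5, against 48.5% to 66.2% with it. Il7r was at 10.5% to 34.1% without Ccl5 and 15.4% to 25.4% with it, and overlapped. Gzmb was seen in at most 3.77% of the cells without Ccl5, and in 9.03% to 24.4% of those with it. It was at 0 of 38 such cells in knockout library 1 and 0 of 31 in control library 3, which allows shares of up to 7.89% and 9.68%. These shares are descriptions, since Ccl5 was chosen after values were known, and such limits cover counting error only.

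**Figure D4:**
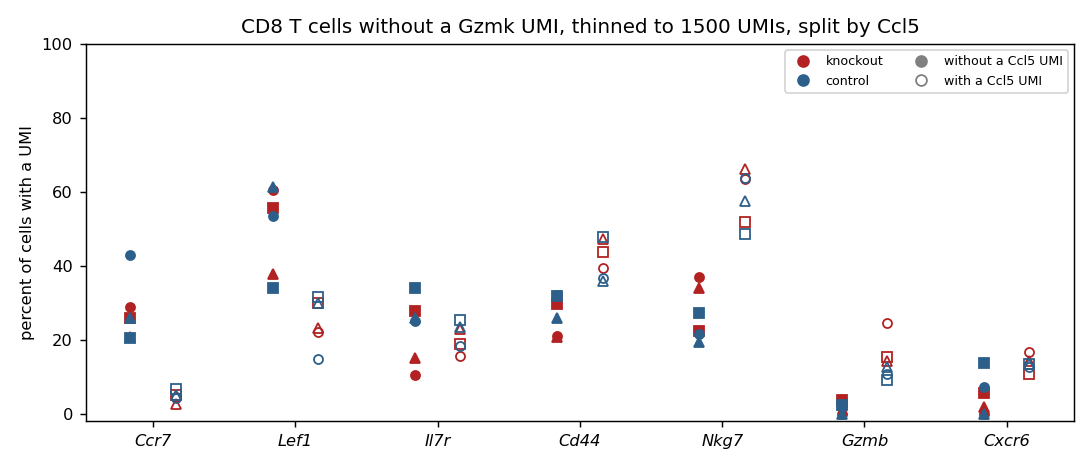
Percent of cells of the population with a UMI of 7 genes, thinned to 1500 UMIs, for cells without (filled) and with (open) a Ccl5 UMI, 1 point per library (red knockout, blue control). Ccr7 and Lef1 are more frequent without Ccl5 in all 6 libraries, and Cd44, Nkg7 and Gzmb with it.

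Against the 12577 other T cells of the livers, which include the Gzmk-positive CD8 T cells and the CD4 T cells, the population had more transcripts of cytotoxic and naive genes and fewer of innate-like and helper T cells. Of 12715 genes tested with edgeR, 1193 (9.38%) were higher and 974 (7.66%) lower. Crtam had 84.1 to 135 CPM in the population, against 28.3 to 36.7 CPM in other T cells, a difference of 1.60 ± 0.081 (edgeR adjusted p = 1.21e-08). Themis had 790 to 1317 CPM, against 477 to 730 CPM in other T cells, a difference of 0.85 ± 0.039 (edgeR adjusted p = 3.68e-09). For both markers no library of one overlapped the other. Ccl5 had 3802 to 9521 CPM in the population, against 1715 to 5297 CPM in other T cells, a difference of 1.27 ± 0.11, and Ccl4 differed by 1.41. Ly6c2, a surface protein of memory CD8 cells whose reads can be split with its copy Ly6c1, differed by 1.32, and the inhibitory NK-type receptor Klrc1 by 1.17. Of the granule and effector list 14 of 21 tested genes were higher and 1 lower, and of the naive list 15 of 24 higher and none lower. Both medians, 0.71 and 0.44, stood beside 0.00 over all genes. Interferon-stimulated genes were higher in 16 of 45 tested and lower in 1, with a median of 0.21.

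Innate-like and helper genes were lower than in other T cells. Of the gamma-delta and innate-like list, 12 of 13 tested genes were lower (median -2.40). Il17a, an inflammatory interleukin, had 0 to 2.14 CPM in the population, against 32.0 to 88.6 CPM in other T cells, and Il23r, a chain of the interleukin-23 receptor, differed by -3.40. Zbtb16, the factor of innate-like T cells, had 15.9 to 58.6 CPM, against 120 to 168 CPM in other T cells. Cd40lg, the helper ligand of CD4 T cells, differed by -3.00 and Zbtb7b, the factor that sets CD4 identity, by -1.77. Tnfsf8, higher than in Gzmk-positive cells, was lower than in other T cells, by -2.11, and the Rac activator Tiam1 differed by -2.0. Cd4 itself was barred by the selection, so these differences are not independent of it.

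Conventional CD4 T cells, the 3253 cells with Cd4 and without Foxp3 or CD8 UMIs were the third comparison. Of 11251 genes 1246 (11.1%) were higher in the population and 1218 (10.8%) lower by edgeR. Granule and effector genes were higher in 16 of 21 tested and lower in 1, with a median of 1.37. NK-type receptors were higher in 7 of 14 tested and lower in none, with a median of 1.70. Gzmb had 63.4 to 327 CPM in the population, against 8.12 to 29.7 CPM in CD4 T cells, a difference of 2.84 ± 0.28 (edgeR adjusted p = 0.000978). Prf1, at 22.4 to 41.6 CPM against 1.96 to 5.45 CPM in CD4 T cells, differed by 3.11 ± 0.2. Runx3, the factor that sets CD8 identity, had 294 to 389 CPM, against 110 to 144 CPM in CD4 T cells, a difference of 1.41 ± 0.051 (edgeR adjusted p = 7.45e-10). Zbtb7b had the opposite order, at 2.69 to 5.82 CPM against 20.7 to 23.5 CPM in CD4 T cells. None of these ranges overlapped. Helper genes were lower, among them Cd40lg at 2.41 to 11.9 CPM against 83.7 to 147 CPM in CD4 T cells, the OX40 receptor gene Tnfrsf4 by -3.70 ± 0.16 and Maf by -2.39 ± 0.17. The naive list was higher here too, in 15 of 24 tested genes with 1 lower, and Dapl1 was higher by 1.72. Of 28 cell cycle genes 25 were lower, with a median of -0.94. Sting1, the gene targeted in endothelium, was also lower, by 0.53 on the log2 scale (SE 0.13, edgeR adjusted p = 0.00785), at 10.6 to 15.1 CPM in the population against 15.1 to 19.9 CPM in CD4 T cells, and lower in 6 of 6 libraries.

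Between genotypes no gene of the population passed the test: 0 of 10240 tested genes (0%) by edgeR and 0 by DESeq2, with 392 and 205 at an unadjusted p under 0.05. Every edgeR adjusted p was 0.999. Without a filter on low counts 2 passed, Itga1 and the mitochondrial mt-Nd4l. The targeted gene Sting1 had 14.6, 10.3 and 10.9 CPM in knockout libraries, against 10.9, 11.8 and 13.3 CPM in control libraries, a difference of 0.00 ± 0.26. The ranges overlap, and 3′ tags can lie outside the floxed exons, so this level does not check the deletion. The groups did not overlap for 995 genes (9.72%), 489 of them (4.78%) higher and 506 (4.94%) lower in knockout.

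The leading genes by unadjusted p are given as values. Itga1, the alpha chain of a collagen-binding integrin of resident T cells, had 107, 65.5 and 71.7 CPM in knockout libraries, against 36.4, 46.8 and 46.3 CPM in control libraries. Every knockout library lay above every control library, and the difference was 0.92 ± 0.21. Eya2 had 37.8, 44.9 and 34.3 CPM in knockout, against 25.3, 17.7 and 20.4 CPM in control. Cd48, a ligand of the SLAM family, had 129, 111 and 136 CPM in knockout, against 93.1, 78.8 and 95.8 CPM in control. The remaining leading genes with positive differences were Cuedc2, Arhgap6, Flrt2, Pik3ap1, Lonrf3, Ext2 and Macroh2a1, at 0.42 to 1.18. In the Gzmk-positive cells of the same mice Itga1 had 83.9, 72.0 and 72.9 CPM in knockout, against 38.0, 59.0 and 44.4 CPM in control. Eya2 differed by 1.27 there with the groups apart, while Cd48 differed by -0.06. Pik3ap1, Ext2 and Macroh2a1 also lay apart and higher there, and Cuedc2, Arhgap6, Flrt2 and Lonrf3 overlapped.

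On the negative side, mt-Nd4l, a mitochondrial gene whose reading frame overlaps that of mt-Nd4, had the smallest unadjusted p and a difference of -0.99. Maf, a transcription factor of helper and exhausted T cells, came next. It had 45.8, 48.2 and 56.5 CPM in knockout, against 83.1, 83.0 and 101 CPM in control, a difference of -0.81 ± 0.15. Ifit1, an interferon-induced antiviral protein, had 16.5, 10.3 and 12.5 CPM in knockout, against 26.7, 28.6 and 21.99 CPM in control. Fas, the death receptor, had 50.1, 47.3 and 44.9 CPM in knockout, against 58.7, 83.8 and 93.4 CPM in control. For all 3 the groups were apart, with differences of -0.99 ± 0.23 for Ifit1 and -0.72 for Fas. The chaperonin Hspe1 had 468, 403 and 493 CPM in knockout, against 702, 771 and 580 CPM in control. Differences of Mlf1, Ezh1, Rasgef1b, Ccnyl1 and Ccdc138 were -0.84 to -0.73. In Gzmk-positive cells the differences were -0.89 for Maf, with overlapping groups, -0.20 for Ifit1 and -0.11 for Fas. They were -0.93 for mt-Nd4l, -0.49 for Hspe1 and -0.52 for Ezh1, with the groups apart there too.

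**Figure D5:**
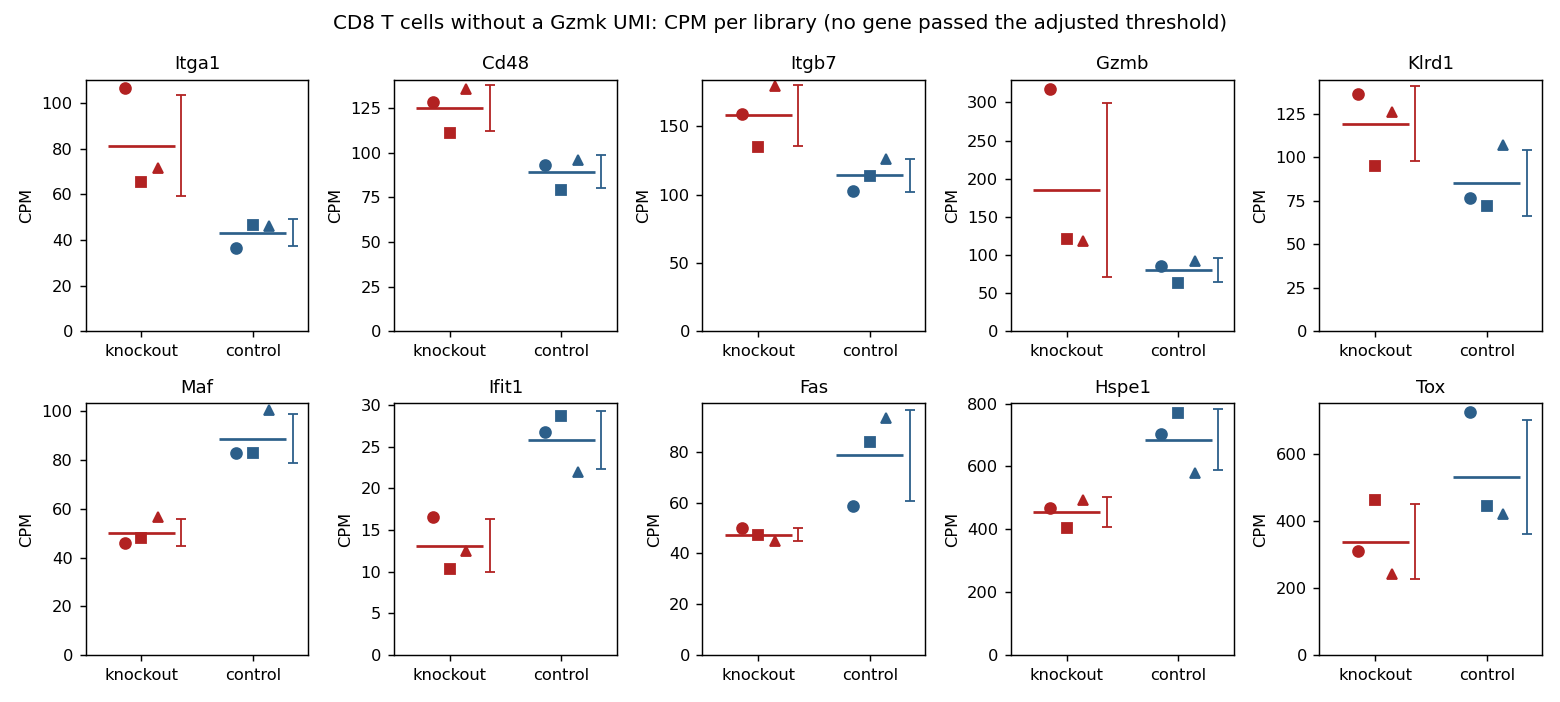
CPM per library of 10 genes in the population, knockout left of control, with the mean as a line and the SD as a bar (n = 3 each). Itga1, Cd48 and Itgb7 lie above the controls in all 3 knockout libraries and Maf, Ifit1, Fas and Hspe1 below them, while Klrd1 and Tox overlap.

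None of the members of the gene lists passed between genotypes, and the lists are given by their medians. Interferon-stimulated genes had a median of -0.28 over 42 tested genes, against 0.00 over all genes, and 10 of them lay apart between groups, all lower in knockout, where 4.94% of all genes did so. The median was -0.16 without knockout library 2 and -0.15 without cells carrying UMIs of other cell types. Besides Ifit1 the 10 genes apart included the sensor Ddx58 and the signal transducers Stat2 and Irf9. In Gzmk-positive cells the groups also lay apart for Ddx58 at -0.46 and Stat2 at -0.51, while Ifit1 at -0.20 overlapped. Among genes that interferon-gamma induces, 5 of 22 lay apart and lower, with Gbp5 at 7.56, 4.68 and 5.90 CPM in knockout, against 11.7, 17.7 and 17.3 CPM in control, but the list's median was -0.06. Of the granule and effector list 4 of 21 lay apart and higher, where 4.78% of all genes did so. Its median of 0.13 ran from -0.06 to 0.27 with 1 library left out and was below 0 without knockout library 1 or 3. Gzmb had 317, 120 and 118 CPM in knockout, against 85.4, 62.8 and 92.7 CPM in control, a difference of 1.20 ± 0.47, and the highest library was the one with the neutrophil transcripts. The other 2 knockout libraries also lay above every control library for Gzmb. NK-type receptors had positive differences in 12 of 13 tested genes, against 5206 of all 10240, and 1 of the 13 lay apart and higher. Their median of 0.51 ran from 0.04, without knockout library 1, to 0.87 when 1 library was left out. Klrd1, the partner chain of the Klrc receptors, had 137, 95.01 and 126 CPM in knockout, against 76.6, 72.0 and 107 CPM in control, with overlap. Heat shock and dissociation genes had a median of -0.20 (-0.13 without knockout library 1, -0.32 without knockout library 3), with 6 of 30 lower and 1 higher without overlap, and the part of handling in the genotype values was not tested. Hspa1b, whose reads can be split with Hspa1a, had 1801, 2476 and 2132 CPM in knockout, against 3487, 3789 and 2977 CPM in control. In Gzmk-positive cells Hspa1b differed by -0.69 with the groups apart, and Hspa1a by -0.49 with overlap. The naive list was at -0.06, the cell cycle list at 0.02 and the STING pathway list at 0.04. The 14 measured markers of gamma-delta and innate-like T cells, none of them at 0 in all 6 sums, added up to 110 to 155 CPM in knockout and 212 to 229 CPM in control, without overlap, and their part in these values was not tested.

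Of 12 genes whose detection was compared between genotypes, 3 did not overlap. In summed CPM, a different measure, the groups did not overlap for 9.72% of all tested genes. Gzmb was detected in 21.1%, 13.2% and 13.3% of the population in knockout, against 9.62%, 8.16% and 9.93% in control. The inhibitory receptor Pdcd1 was detected in 2.11%, 1.74% and 1.51% in knockout, against 4.42%, 2.92% and 2.65% in control. Itgae was detected in 3.52%, 3.12% and 1.51% in knockout, against 0.769% and 1.17% in control libraries 1 and 2 and in 0 of 151 cells in control library 3, which allows up to 1.99%. Each exact two-sided permutation p was 0.1, the smallest the design allows, and 0.40 after adjustment over the 12 genes. Pdcd1 and Itgae were seen in few cells of each library. The other 9 genes, among them Ccr7, Lef1, Il7r, Cd44, Ccl5, Nkg7, Gzma and Cxcr6, overlapped.

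Whether genotype differences themselves differed between cells without and with Gzmk was tested as an interaction. No gene passed by edgeR (0 of 9723, 0%), 521 had an unadjusted p under 0.05, and DESeq2 called 3. The smallest edgeR adjusted p values were those of Hspb1, a small heat shock protein, at 0.0545 and of the collagen gene Col6a1 at 0.0558. Hspb1 had 214, 98.8 and 461 CPM in knockout and 200, 476 and 471 CPM in control cells without Gzmk. In the Gzmk-positive cells it had 241, 103 and 468 CPM in knockout and 124, 250 and 299 CPM in control. Nrip1, a nuclear receptor co-repressor, had 238, 338 and 274 CPM in knockout and 275, 292 and 296 CPM in control cells without Gzmk, and lower knockout values with Gzmk, 144, 208 and 171 CPM against 265, 281 and 251 CPM in control (edgeR adjusted p = 0.244).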

How the data were processed

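The authors deposited raw UMI counts per gene and barcode for 6 libraries of 31253 genes. Reads were processed with Cell Ranger 7.1.0, and Seurat 4.1.1 and mm10 are also named, per the submitters' processing notes. Of 44656 barcodes 42682 passed the limits of 300 genes and 20% mitochondrial UMIs. The members, gene lists and comparisons were chosen with earlier results of these data known.

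UMIs were summed per library and population (Python 3.11.15, scanpy 1.11.5) and tested with edgeR 4.0.16 in R 4.3.3 (TMM, filterByExpr, robust quasi-likelihood, Benjamini-Hochberg adjustment over all genes tested, threshold 0.05), after the scripts were tested on simulated data. Population contrasts had the library as a block and left out the 10 selection genes. CPM are UMIs scaled by a sum's total and TMM factor, computed anew in each comparison. Genotypes were compared over mice without a replicate block, since the deviations of same-numbered libraries correlated at -0.18, 0.25 and 0.05 over 4604 genes and the labels name no shared litter or day. The 3 mice per group are biological replicates per the labels. Shares were compared with exact two-sided permutation tests. Shares with a UMI used cells thinned to 1500 UMIs, which kept 2181 of the 2186 cells.

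Named genes were up to 10 in each direction. Between populations these were called genes whose log2 CPM averaged 5 or more, ranked by fold difference, and between genotypes genes at 4 or more, ranked by p. Up to 3 in each direction were named for the interaction and up to 6 of smallest p in each list. Receptor segments and unnamed genes were left out, of which 9 unnamed genes were higher and 4 lower than in Gzmk-positive cells. Itga4, Tnf, Il10ra and Irf9 fall outside this rule and were chosen after their values were seen. Doublets were scored with Scrublet at an expected rate of 0.06 and a common threshold of 0.2775 set after the scores were seen, were kept in the main analysis and removed in an alternative. Other alternatives were DESeq2 1.42.0, RLE scaling, no low-count filter, each library left out, a 10% mitochondrial limit, removal of cells with Trdc or other cell type UMIs, and thinning before selection. Gene positions are those of GRCm38, and sequences are RefSeq windows of GRCm38.p6. Some genes of the lists are counted in them but not reported here by name.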

Additional observations from a re-analysis of the deposited data

How the results depend on the processing

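The comparison with Gzmk-positive CD8 T cells, 750 called genes, moved most. DESeq2 called 480, no low-count filter 1334, omission of cells with Mki67 or Top2a UMIs 383, and thinning before selection 5 of 1205 testable genes. Leaving out 1 library gave 383 to 660, the lowest without knockout library 2 (383), control library 1 (408) and control library 2 (469). Of its 20 named genes 13 lost their call under at least 1 setting. The settings on dividing cells, on Ccl5 and on 2 Gzmk UMIs were chosen after seeing the data. Against conventional CD4 T cells DESeq2 called 1540 genes in place of 2464.

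Between genotypes the unfiltered fit called 2 genes, and every other setting called 0. The replicate block called 0, with 468 at an unadjusted p under 0.05 and a smallest adjusted p of 0.178. The interaction called 3 with DESeq2, 260 without a filter, 1 with the 10% mitochondrial limit and 0 to 53 with 1 library left out, of which 1 without control library 2 and 53 without control library 3. The cause was not tested.

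The genotype difference of the share of all cells ran from -0.298 to 2.12 and that of the share of T cells from -0.948 to 5.06 percentage points with 1 library left out, negative without knockout library 3. With cells thinned to 1500 UMIs before selection they were 0.0276 and 0.561 percentage points, against 1.12 and 2.97 in the main analysis. For the share of CD8 T cells the difference was 6.46, against 8.79. The difference in detection was 2.30 without thinning and 2.15 at 1000 UMIs for Lef1, and for Il7r 0.118 at 1000 UMIs and for Cd44 -1.57 at 1000 UMIs, each against the opposite sign at 1500 UMIs. The Sting1 difference, near 0, ran from -0.160 to 0.0818 on the log2 scale with 1 library left out, was 0.349 without cells carrying other cell types' UMIs, and was -0.00469, -0.0311 and -0.00387 under the 10% mitochondrial limit, without Trdc cells and under the replicate block. Control library 3, with 151 cells, limits the depth of every genotype value.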
